A study of Homo sapiens with 4 samples.

Results

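KDM5B-high RVT cells were A375 melanoma cells of the RVT culture that held at least 2 unique molecular identifiers (UMIs, each standing for 1 captured transcript) of KDM5B. They were chosen by this count alone, among barcodes with at least 500 genes and at most 20% of UMIs from the mitochondrial genome. The members were 532 of the 9313 RVT cells that passed the filter, which is 5.71% (95% exact binomial interval 5.25 to 6.20), and of 28640 filtered cells in 4 libraries. They were set against the 6398 RVT cells with 0 KDM5B UMIs, and 2383 cells with 1 UMI lay between these classes. A375 is an established human melanoma line with a V600E mutant BRAF kinase. S cells were untreated, RV cells had been made resistant to vemurafenib, an inhibitor of mutant BRAF, RVC cells to vemurafenib and cobimetinib, and RVT cells to vemurafenib and trametinib, cobimetinib and trametinib being inhibitors of MEK1/2. All 3 resistant cultures were kept for 10 to 14 days below the IC50 of their drugs, which were taken off 24 h ahead of the single-cell run. Each condition was 1 culture and 1 library, so cells are not replicates, no p-value was made, and every interval covers counting error only.

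KDM5B, also termed JARID1B, is a demethylase that removes methyl groups from lysine 4 of histone H3, a mark of active promoters. In melanoma it is known as a marker of cells that divide slowly and outlast treatment, and the comparison of KDM5B-high with KDM5B-zero cells asks whether such cells can be seen in the RVT culture. Cells about to replicate DNA express genes such as PCNA, TYMS and the MCM helicase subunits (the G1/S list), and cells about to divide express genes such as TOP2A, CENPF and MKI67 (the G2/M list), so both lists should be low in cells that rest. The KDM5B gene lies on the minus strand of chromosome 1, from 202724495 to 202809470 in GRCh38 with the GENCODE 29 annotation. A pseudogene on the same strand (positions 202767229 to 202767418) and another on the opposite strand (202796030 to 202797094) lie within it and were not analysed here.

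The count table of RVT gave 28829751 UMIs in filtered cells, with a median of 2951 per cell, the lowest of the 4 libraries (S 8911, RV 11648, RVC 4099). Of 10427 RVT barcodes, 1084 had under 500 genes and 580 were over 20% mitochondrial. The melanocyte markers summed to 56.8 counts per 1000000 UMIs (CPM) in KDM5B-high and 61.4 in KDM5B-zero cells, nearly all from MITF and SOX10, while MLANA and TYR were at 0 in both classes. The 6 markers of other cells summed to 32.3 and 30.3 CPM, mostly the matrix gene LUM, and the leukocyte marker PTPRC was at 0 in both. RVT shared 84 cell barcodes with S, 49 with RV and 124 with RVC. Of the 532 KDM5B-high barcodes, 6, 2 and 8 were among these, and 0 of them held 2 or more KDM5B UMIs in the other library.

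KDM5B was measured at 122 CPM in RVT (95% exact Poisson interval 118 to 126, 3525 UMIs), at 40.0 in RVC (38.0 to 42.1), at 26.4 in S (25.2 to 27.7) and at 22.9 in RV (21.6 to 24.2). The interval of RVT did not overlap that of any other library. No RVT cell held more than 4 KDM5B UMIs. The members just inside the threshold were 460 cells with 2 UMIs, at 525 KDM5B CPM, and those just outside were the 2383 cells with 1 UMI, at 301 CPM. A further 72 cells held 3 or more, at 762 CPM. These values describe the choice of the cells and are no finding about them. No cell type that lacks KDM5B was in the culture to give the level of free RNA, and RVT barcodes outside the filter held 190 KDM5B CPM (163 to 221), so the part of free RNA in the classes was not tested.

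If the 3525 UMIs were spread over the RVT cells in proportion to each cell's total, 6456 cells would hold 0, 2292 would hold 1, 566 would hold 2 or more and 88.3 would hold 3 or more. The observed number with 2 or more was 0.941 times that number in RVT, against 1.10 in S, 1.19 in RV and 1.17 in RVC. The interval of the share of high cells held the even spread in RVT, S and RVC, and lay above it in RV alone. Cells of 1 common KDM5B level would thus give nearly the class sizes seen in RVT. How far the RVT classes differ in their true KDM5B level was not measured, and a ratio near 1 between them does not show that cells of different KDM5B level were alike. In RVT cells thinned at random to 1500 UMIs each, the variance of KDM5B counts was 0.981 times their mean. Among 312 genes within 1.25-fold of its level this quotient had a median of 1.02 and was below that of KDM5B for 5 genes. KDM5B itself had 1.01 in S, 0.998 in RV and 1.02 in RVC. Its means there were 0.0433, 0.0314 and 0.0615 UMIs per thinned cell, against 0.189 in RVT. At such low means the quotient says little about a modest spread between cells. Among the RVT genes it reached 2.37 for PTTG1, which encodes securin and is made in dividing cells.

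**Figure D1:**
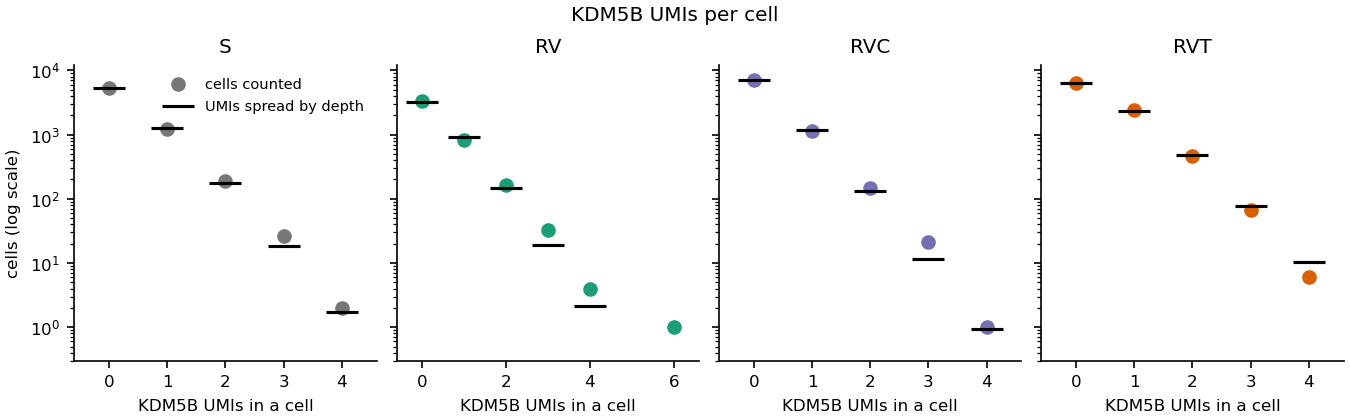
Number of cells (y axis, log scale) by KDM5B UMIs in the cell (x axis) in the 4 libraries; filled points are cells counted and black bars the number when the library's KDM5B UMIs are spread in proportion to each cell's total (bars under 0.3 cells are not drawn). In RVT the 532 cells with 2 or more UMIs lie at 0.941 times the even spread, and the pooled number with 2 or more lies at 1.10 to 1.19 times it in S, RV and RVC.

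The KDM5B-high cells were deeper than the KDM5B-zero cells. Their median was 3673 UMIs and 1177 genes, against 2811 UMIs and 985 genes in cells with 0, 3171 UMIs in cells with 1 and 3653 in cells with 2. The share of cells in the high class was 2.49%, 3.87%, 6.40% and 10.1% in 4 groups of RVT cells of equal size, from the shallowest to the deepest. The KDM5B level itself went the other way, from 149 CPM (137 to 162) in the shallowest group to 131, 120 and 110 (104 to 117) in the deepest. Mitochondrial genes held 5.86% of the UMIs of high cells and 5.92% of those of zero cells, and ribosomal protein genes 39.3% in each. Removal of the top-scoring doublet candidates took out 86 high cells (16.2%) and 535 zero cells (8.36%), and the part of doublets in the results was measured only by leaving these out.

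**Figure D2:**
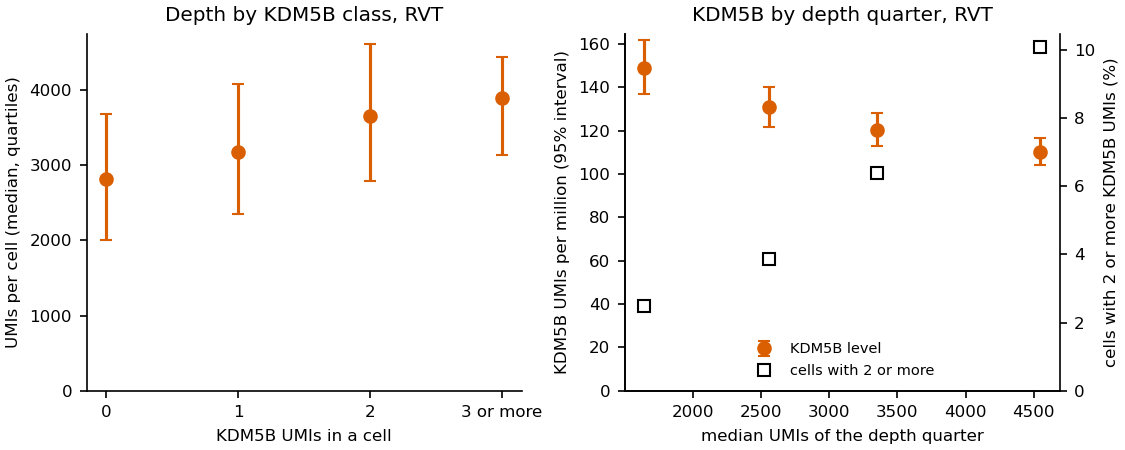
Left, UMIs per cell (median with quartiles) of RVT cells by their KDM5B UMIs; right, KDM5B CPM with 95% Poisson intervals (filled, left axis) and the percentage of cells with 2 or more KDM5B UMIs (open, right axis) in 4 groups of RVT cells by depth. The high class takes more of its cells from deep cells, while the level is 149 CPM in the shallowest and 110 in the deepest group.

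Because depth differed, each gene was compared in 3 ways. UMIs were summed over each class and given as CPM of that class with KDM5B left out of the totals. In the depth-matched ratio, zero cells were weighted to the depths of the high cells in 20 bins. In the thinned ratio every cell was reduced to 1500 UMIs, which 512 high and 5695 zero cells reached. The classes were kept from full depth here, so the thinned high cells were still cells that had been deeper. Thinning of this kind evens the counting but does not match the classes for depth. At 50 CPM the high class held about 102 UMIs of a gene. Its exact Poisson interval reached 21.4% above the value, with the error of the zero class left out.

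Hardly any gene differed by 1.5-fold between the KDM5B-high and KDM5B-zero classes, which may themselves differ little in true KDM5B level. Of 1803 genes with at least 50 CPM, 0 (0%) were past 1.5-fold higher and 0 (0%) were past 1.5-fold lower as CPM. These counts go by the size of the ratio, without a test. The log2 ratios had a standard deviation across genes of 0.12 and ran from −0.53 to 0.58. Depth-matched, 0 genes (0%) were past 1.5-fold higher and 1 (0.0555%) was past 1.5-fold lower, namely PCLAF, which binds the replication clamp PCNA. In thinned cells 1 was higher and 7 were lower, with larger counting error. With the same UMI thresholds in the other libraries, as CPM, 2 genes were higher and 4 lower of 1881 in S. The counts were 18 and 4 of 1961 in RV, and 2 and 21 of 1694 in RVC. Depth-matched these counts were 2 and 7 in S, 13 and 1 in RV, and 4 and 9 in RVC. The high classes there were 215, 200 and 167 cells. They held KDM5B at 183 CPM in S, 132 in RV and 327 in RVC, against 559 in RVT. Even RVT cells with 1 UMI, at 301 CPM, lay above the high classes of S and RV. The libraries thus do not compare cells of like KDM5B level. S and RV were counted on another gene annotation than RVC and RVT. The RV genes past 1.5-fold higher included CDKN1A, which blocks cyclin-dependent kinases, and its fellow p53 targets GADD45A, PHLDA3 and DDB2.

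DDIT3, the stress-response transcription factor CHOP, ranked first among the genes higher in high cells, by the lower bound of the ratio. It stood at 85.7 CPM in high and 57.4 in zero cells, a ratio of 1.49 (1.27 to 1.75, 175 UMIs in high cells), 1.47 (1.26 to 1.71) depth-matched and 1.12 in thinned cells. Another thinning draw gave 0.47 on the log2 scale, against 0.58 before thinning. When thinned cells were classed again by KDM5B, with 123 high cells, it was lower in high cells, at −0.47 on the log2 scale. With equal weight per cell DDIT3 was at 0.245 and at 1 or more KDM5B UMIs at 0.316, both below the interval of the ratio. With TMM factors (0.547) and without the highest doublet scores (0.644) it stayed within. The interval treats UMIs as separate draws, also where several come from 1 cell. Its depth-matched ratio was 1.39 (0.982 to 1.91) in RVC and 1.18 (1.03 to 1.34) in RV, and in S it was below 1 with an interval of 0.825 to 1.09, so that the size seen in RVT lay outside the intervals of S and RV. HERPUD1, another gene of the unfolded protein response, had a depth-matched ratio of 1.27 with an interval above 1, whereas HSPA5, the chaperone BiP, had 1.10 (0.961 to 1.24) and ATF4, which lies upstream of DDIT3, had 1.03 (0.868 to 1.20). The whole stress list of 17 genes, DDIT3 included, summed to a depth-matched ratio of 1.08 (1.04 to 1.12), and in thinned cells to 1.03 (0.966 to 1.10).

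The other genes named as higher had ratios of 1.19 to 1.43. The genes named in each direction are extremes of 1803, ranked by the bounds of the intervals quoted for them. Such intervals overstate how surely a gene differs. How many of all genes had an interval that left out 1 was not counted. SLPI, a secreted protease inhibitor, stood at 93.1 and 64.9 CPM (ratio 1.43, 1.22 to 1.67), and at 1.06 in thinned cells. Another thinning draw gave SLPI a log2 ratio of 0.51, against 0.52 before thinning, and when thinned cells were classed again it was −0.18. With equal weight per cell it was 0.271, and without the highest doublet scores 0.743. EAPP, which binds E2F factors, had a ratio of 1.30 and kept 1.32 depth-matched and 1.35 thinned. APH1A, a subunit of gamma-secretase, GOLGA2, a Golgi matrix protein, AUP1 of the endoplasmic reticulum, SEPHS2, which makes the selenium donor of selenoproteins, AOPEP, an aminopeptidase, SON, a splicing protein, ZKSCAN1, a zinc finger protein, and FAM162A had ratios between 1.19 and 1.33, and each was also above 1 depth-matched. Of all 1803 genes, 1079 were above 1 depth-matched. That ratio reuses the high-class UMIs the genes were ranked on, so it is no separate check. Of the 12 genes named as higher, 6 lay above 1 depth-matched in S, 8 in RV and 8 in RVC. The share of all genes above 1 was not counted in these libraries. There the median depth-matched log2 ratio over all tested genes was −0.023 in S, −0.014 in RV and −0.024 in RVC. SEPHS2 had 0 UMIs in the high cells of S and RV, which leaves 11 genes with UMIs in each of these. ZKSCAN1 was above 1 throughout (1.48 in S, 1.36 in RV and 1.08 in RVC, beside 1.30 in RVT), whereas AOPEP had 0.632 (0.420 to 0.913) in RVC. SLPI had few UMIs in the high cells of the other libraries. It was at 2.50 (1.29 to 4.36, 12 UMIs) in RVC and at 0.481 (0.156 to 1.12, 5 UMIs) in RV. PTTG1 was the exception among the 12, at 1.21 by CPM and 0.789 (0.705 to 0.880) depth-matched, and its level in the deeper zero cells was 2.11 times that in the shallower ones.

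The 12 genes named as lower had ratios of 0.694 to 0.902, and each was also below 1 depth-matched, 8 of them with an interval below 1. Of all 1803 genes, 724 (40.2%) were below 1 depth-matched. That ratio reuses the high-class UMIs the 12 were ranked on, so it is no separate check. LRRC75A stood at 116 CPM in high and 167 in zero cells (ratio 0.694, 0.606 to 0.792; depth-matched 0.797, 0.699 to 0.906). CTNNB1, which encodes beta-catenin, stood at 213 and 287 CPM (0.740, 0.670 to 0.816; depth-matched 0.821). By class, not matched for depth, CTNNB1 stood at 287 CPM in cells with 0 KDM5B UMIs, 267 with 1, 221 with 2 and 162 with 3 or more. All but the value for 1 UMI are values it was ranked on, and median depth rose over the classes in the same order. It was at 0.09 on the log2 scale when thinned cells were classed again. Its depth-matched ratio was above 1 in RVC (1.28, 1.09 to 1.48), and the intervals of S and RV held 1. The rest were B4GALT1 (a galactosyltransferase), the phosphatase subunits PPP3CA and PPP1CB, ANXA1 (annexin A1), NR3C1 (the glucocorticoid receptor), ETFB (of the electron transfer flavoprotein), SPTSSA (of sphingolipid synthesis), ELOB (elongin B), SCG5 (a neuroendocrine secretory protein) and SAT1 (of polyamine breakdown). All 12 were also lower in deep than in shallow zero cells, by ratios of 0.703 to 0.952. The intervals of B4GALT1 (0.893 to 1.02) and ETFB (0.806 to 1.04) held 1 there. The share of all genes lower in deep zero cells was not counted. In S, RV and RVC, 4, 5 and 4 of the 12 lay below 1 depth-matched. The share of all genes below 1 was not counted in these libraries. Over all tested genes the median depth-matched log2 ratio was −0.023 in S, −0.014 in RV and −0.024 in RVC.

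Matching for depth brought out 2 further groups. IGFBP5, an IGF-binding protein, stood at 195 and 167 CPM (ratio 1.17, 1.05 to 1.30), with a depth-matched ratio of 1.41 (1.27 to 1.55). In the 72 cells with 3 or more KDM5B UMIs, which are among the cells it was ranked on, it reached 340 CPM. The 460 cells with 2 had 171 and cells with 1 had 155. Zero cells weighted to the depth of the high class had 139 CPM. The transcription factor SOX4, CALD1 (caldesmon), GABARAPL2 of autophagy, SNRPB2 of the spliceosome and ELP2 of the elongator complex had depth-matched ratios of 1.21 to 1.30. The lower group held PCLAF (0.562, 0.480 to 0.654), TOP2A (0.670), the centromere protein CENPF (0.699), the histone gene H4C3 (0.743), CKS2, a partner of cyclin-dependent kinases (0.797), and the histone variant H2AZ1 (0.848). These 6 were picked by rank and were not tested as a group. All 6 were higher in deep than in shallow zero cells, by ratios of 1.29 to 2.58. The share of all genes that were so was not counted, and ranking after depth matching favours genes that change with depth. By CPM their ratios were 0.912 to 1.19, with H4C3 the only one whose interval lay below 1 (0.844 to 0.987). The CPM interval of CKS2 lay above 1 (1.05 to 1.34), and those of the others held 1. In thinned cells with the classes kept their ratios were 0.914 to 1.17, each with an interval that held 1. All 6 were lower by CPM in the 72 cells with 3 or more KDM5B UMIs and when thinned cells were classed again. The 72 cells, and the 123 cells classed high again, are all among those the 6 were ranked on, so these values add no separate support. Both sets are small, and the 72 cells held few UMIs of some genes (PCLAF was at 17.2 CPM there).

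**Figure D3:**
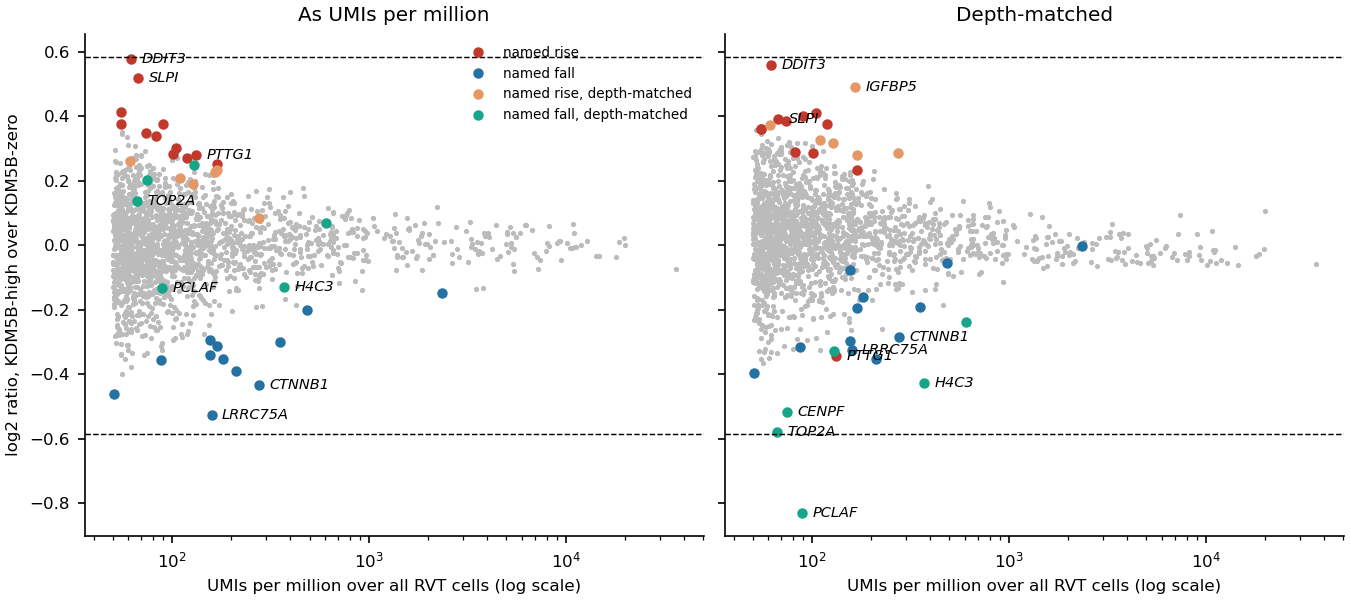
Log2 ratio of KDM5B-high to KDM5B-zero RVT cells (y axis) by level over all RVT cells (x axis, log scale) for 1803 genes, as CPM (left) and depth-matched (right); coloured points are the named genes and dashed lines mark 1.5-fold. No gene lies past the lines on the left, and PCLAF alone lies past them on the right.

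The slow-cycling idea was examined on the cell cycle lists. The 43 G1/S genes summed to 471 CPM (442 to 502) in high and 474 (464 to 484) in zero cells, a ratio of 0.993 (0.928 to 1.06), and thinned cells gave 0.973 (0.869 to 1.09). Against zero cells of the same depth the ratio was 0.856 (0.803 to 0.912). The 54 G2/M genes summed to 1538 (1485 to 1593) in high and 1397 (1380 to 1414) in zero cells, a ratio of 1.10 (1.06 to 1.14), with 1.08 (1.01 to 1.15) in thinned cells. Matched for depth the G2/M ratio turned to 0.810 (0.781 to 0.838). The direction for G2/M genes thus depended on whether depth was matched. When cells were first thinned to 1500 UMIs and then classed again by their thinned KDM5B count, 123 cells were high, with a median original depth of 3062 UMIs against 3130 in zero cells. In these classes of nearly equal depth the G2/M ratio was 0.798 (0.690 to 0.919) and the G1/S ratio 0.931 (0.737 to 1.16). Both come from 1 random draw, and the G2/M value rests on 196 UMIs in the 123 high cells. How far it changes with the draw was not measured. The 123 cells are all among the high cells set at full depth, so the value is not independent of the depth-matched one.

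By KDM5B class the G2/M sum was 1397 CPM with 0 UMIs, 1498 with 1, 1621 with 2 and 1038 (924 to 1162) with 3 or more. Against zero cells of each class's depth it stepped down, at 0.960 (0.943 to 0.977), 0.852 (0.821 to 0.884) and 0.649 (0.578 to 0.726) for 1, 2 and 3 or more. The G1/S sum stood, with overlapping intervals for neighbouring classes, at 0.949 (0.918 to 0.980), 0.879 (0.821 to 0.941) and 0.809 (0.669 to 0.969). These intervals treat UMIs as separate draws, although G2/M UMIs come together in few cells. At least 10 G2/M UMIs were held by 4.46% of thinned cells with 0 KDM5B UMIs, 4.53% with 1, 5.68% with 2 and 1.39% with 3 or more. The G2/M value of the 72 cells with 3 or more thus turns on very few cells. Of the 30 G2/M genes with at least 10 CPM, 26 had depth-matched ratios below 1, and of the 17 G1/S genes 13 did, where 43.5% of all 6708 genes at that level were below 1. Among G2/M genes, UBE2C of the anaphase-promoting pathway had 0.599 (0.440 to 0.797), MKI67, the Ki-67 antigen, 0.741 (0.564 to 0.956), and NUSAP1 of the spindle 0.697 (0.564 to 0.852). Among G1/S genes, the flap nuclease FEN1 had 0.502 (0.322 to 0.747) and the helicase subunit MCM4 0.621 (0.402 to 0.916), while NASP, a histone chaperone, had 1.12 (0.952 to 1.31) and PCNA 0.828 (0.562 to 1.17).

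UMIs of such genes come together in few cells, so cells were counted as well. Among thinned high cells, 28 of 512 held at least 8 G2/M genes, and these 28 held 53.9% of the class's G2/M UMIs. Counted so, 15.2% of high cells (12.2 to 18.6, 78 cells) held at least 3 G2/M genes, against 17.1% in zero cells of the same depth, and 5.47% (3.66 to 7.81) against 7.21% held at least 8. Both values of the zero cells lay within the intervals of the high cells, so a difference in the share of G2/M cells was not detectable at these minimums, while at least 4 G2/M genes were held by 8.20% (5.98 to 10.9) against 11.5%. For G1/S the separation depended on the draw and on the number of genes asked for. At least 3 G1/S genes were held by 2.34% of high cells (1.22 to 4.06, 12 cells), against 6.16% in zero cells of the same depth and 4.42% in all thinned zero cells. That draw gave the lowest share of 10 random draws from the same cells, which ran from 2.34% to 4.49% with a median of 3.22%. The share was below that of zero cells of the same depth in 10 of 10 draws, but the zero cells lay above the interval of the high cells in 6 of 10. With at least 2 G1/S genes the shares were 13.9% and 15.4%, the second within the interval of the first, and with at least 4 they were 0.391% (2 cells, 0.0473 to 1.40) and 2.58%.

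The same count was made in the other libraries, whose cells had no part in choosing the RVT classes. Their high classes held KDM5B at 183 CPM in S, 132 in RV and 327 in RVC, against 559 in RVT. At least 3 G1/S genes were held by 13.5% (9.22 to 18.8) of S high cells against 20.8% of S zero cells of the same depth, by 16.0% (11.2 to 21.8) against 26.4% in RV and by 20.5% (14.6 to 27.4) against 32.8% in RVC. In this draw the value for zero cells lay above the interval of the high cells in each of the 4 libraries, and over 10 draws it did so in 10 for S, 10 for RV and 5 for RVC. In all 10 draws the high cells had the lower share in S, RV and RVC. The G1/S result was thus firmer in S and RV, the deeper libraries, than in RVT. The depth-matched G1/S ratio, 0.856 in RVT, was lowest in S at 0.734 (0.701 to 0.767), while RV had 0.809 (0.781 to 0.837) and RVC had 0.822 (0.777 to 0.869). The share with at least 3 G2/M genes was likewise lower in high cells, at 30.2% against 38.7% in S, 44.0% against 48.4% in RV and 82.5% against 83.9% in RVC. It was lower in 10 of 10 draws in S, RV and RVT and in 9 of 10 in RVC, and the zero cells lay above the interval in 8 draws for S, 1 for RV, and 0 for RVC and RVT. With at least 8 G2/M genes high cells had the higher share in S (10.2% against 6.82%), RV (14.0% against 9.18%) and RVC (27.1% against 24.2%), with the zero value within the interval in S and RVC and below it in RV. The G2/M sums had no common side, since RV at 1.14 and RVC at 1.04 lay above 1 depth-matched, and S at 0.959 and RVT at 0.810 lay below, although all 4 were between 1.10 and 1.19 by CPM.

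**Figure D4:**
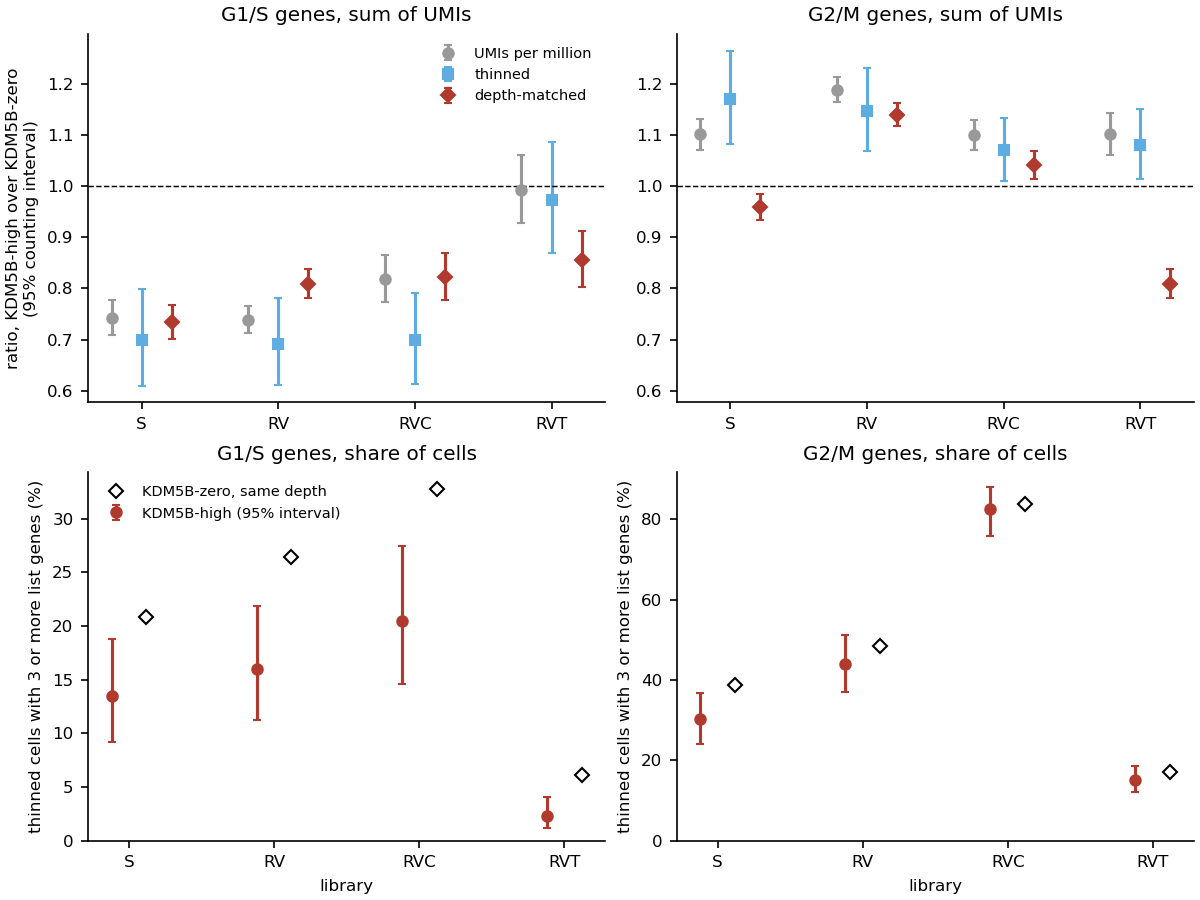
Top, ratio of KDM5B-high to KDM5B-zero cells for the G1/S and G2/M sums in each library, as CPM, thinned and depth-matched, with 95% counting intervals; bottom, percentage of thinned cells with 3 or more list genes in high cells (95% binomial interval) and in zero cells of the same depth. In the 1 draw shown, G1/S shares of zero cells lie above the intervals of high cells in all 4 libraries (6 of 10 draws for RVT), and RVT G2/M is above 1 by CPM and at 0.810 depth-matched.

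The same counts can be read the other way, by the KDM5B level of cells with and without cell cycle genes, which adds no independent support. RVT cells with at least 3 G1/S genes (357 cells) had 88.5 KDM5B CPM (73.3 to 106) and the rest had 123 (118 to 127), with median depths of 3329 and 3098 UMIs. In thinned counts these were 93.4 (69.3 to 123) and 127 (121 to 134), and these intervals overlapped slightly. KDM5B was lower in the cells with G1/S genes in S (17.7 against 28.5 CPM), RV (16.7 against 25.1) and RVC (32.5 against 43.1) as well, with intervals that did not overlap. In thinned counts the intervals were apart in S and RVC and overlapped in RV (10.7 to 23.2 against 18.7 to 27.5). For cells with at least 3 G2/M genes, KDM5B in RVT was 111 CPM (101 to 122) against 123 (118 to 127), and in RVC 39.2 against 42.7, with overlapping intervals in both. It was 22.9 against 28.5 in S and 19.6 against 25.7 in RV, with intervals that were apart, but in thinned counts the intervals overlapped in all 4 libraries. Cells with at least 8 G2/M genes went no common way, with 99.5 KDM5B CPM (84.8 to 116) in RVT, 31.5 (26.3 to 37.5) in S and 27.5 (23.2 to 32.5) in RV.

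The genes that the study names for its slow-cycling cell cluster, of which KDM5B is one, showed little in RVT. The other 17 summed to 7910 CPM in high and 8149 in zero cells, a ratio of 0.971 (0.955 to 0.987) and 1.06 (1.05 to 1.08) depth-matched, so the direction again turned with depth. NEAT1, a nuclear RNA, made most of this sum, with 7271 and 7504 CPM and a depth-matched ratio of 1.07 (1.05 to 1.08). CDKN1A stood at 119 and 113 CPM (depth-matched 1.05, 0.923 to 1.19), MDM2, which degrades p53, at 28.9 and 32.9 (0.860, 0.654 to 1.11), IGFBP3 at 158 and 152 (1.12, 0.998 to 1.25), and GSN (gelsolin), FAM3C and MTOR each had 0.999 to 1.05 depth-matched. The depth-matched sum was 1.44 (1.40 to 1.49) for S cells, 1.32 (1.29 to 1.35) for RV cells and 1.22 (1.17 to 1.27) for RVC cells. The high classes of these libraries were at lower KDM5B levels than that of RVT. NEAT1 had 1.65 in S, 1.30 in RV and 1.25 in RVC, and MDM2 had 1.78 in S and 1.68 in RV. The study chose these genes on these cells, KDM5B among them, so they are not independent of KDM5B.

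CDK inhibitors and further genes of cell cycle exit summed to depth-matched ratios of 1.45 (1.40 to 1.51) in RV, 1.24 (1.13 to 1.35) in RVC, 1.10 (1.04 to 1.17) in S and 1.06 (1.02 to 1.11) in RVT. Of this list, CDKN1B (p27) had 1.06 (0.851 to 1.30), CDKN2C (p18) 0.956 (0.827 to 1.10) and TXNIP, an arrestin-like inhibitor of glucose uptake, 1.10 (1.04 to 1.16) in RVT. The p53 targets had 1.48 (1.44 to 1.51) in RV, while S had 1.11 (1.06 to 1.16), RVC 1.09 (1.00 to 1.18) and RVT 0.980 (0.920 to 1.04). The interval of RVT overlapped that of S for the first list and that of RVC for the second. It was apart from that of RV for both. This compares libraries and not treatments, with high classes of unlike KDM5B level. CDKN1A is a member of both lists and of the slow-cycling genes above, so these sums are not independent of each other. Only 2 genes of the first list reached 50 CPM in S and in RV.

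KDM5A, another demethylase of the same family, stood at 83.3 CPM in high and 86.6 in zero cells (depth-matched 0.982, 0.840 to 1.14), and KDM5C at 15.7 and 17.9 (0.906, 0.620 to 1.28). All other histone demethylases together had 1.03 (0.958 to 1.11), and the H3K4 methyltransferases and their partners had 1.00 (0.952 to 1.05). The respiratory chain did not set the classes apart. Its 77 nuclear genes summed to 38251 and 38287 CPM (0.999, 0.992 to 1.01), and the genes of the mitochondrial genome to 0.990 (0.985 to 0.996), or 1.02 (1.01 to 1.02) depth-matched. Mesenchymal and matrix genes had 1.04 (1.02 to 1.06) depth-matched, ERK output genes 1.08 (1.02 to 1.14) and markers of the neural crest and melanocyte lineage 1.02 (0.897 to 1.15). Over the 24 lists with at least 3 genes at 50 CPM the sums had ratios between 0.938 and 1.10 by CPM, and between 0.810 and 1.08 depth-matched. None of the list genes at that level was past 1.5-fold in either comparison.

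**Figure D5:**
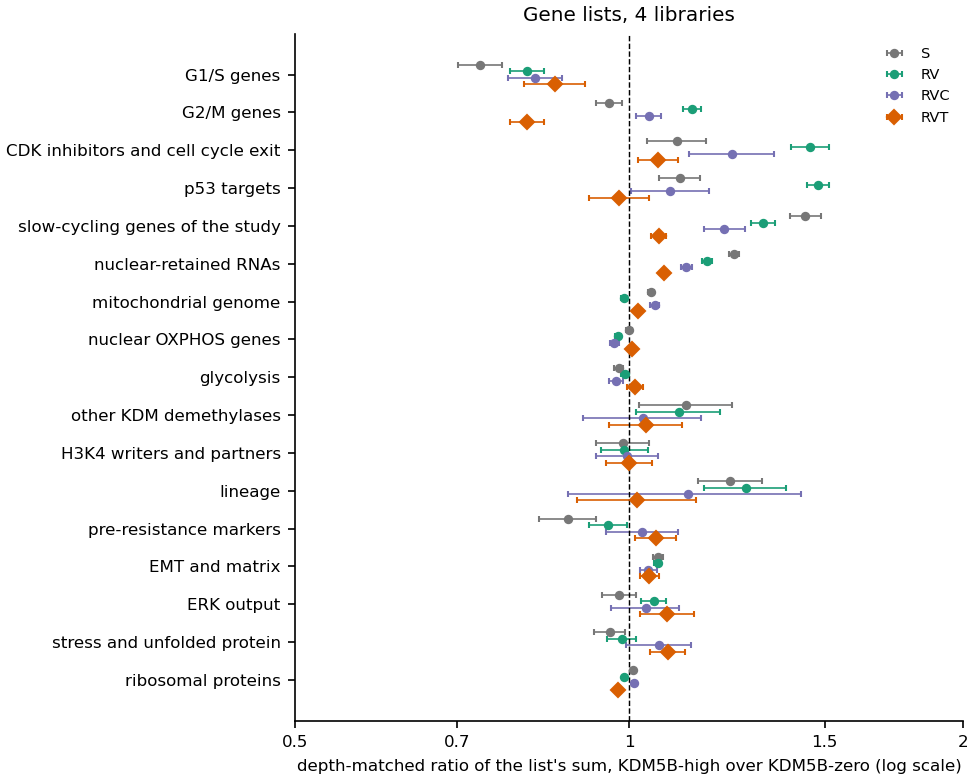
Depth-matched ratio (x axis, log scale) of KDM5B-high to KDM5B-zero cells for the sum of each gene list, by library, with 95% counting intervals of the high class. RVT diamonds lie farthest from 1 for the G2/M (0.810) and G1/S (0.856) lists, while RV reaches 1.48 for p53 targets and S reaches 1.44 for the slow-cycling genes of the study.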

How the data were processed

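Whole-number UMI counts per gene and barcode were deposited by the authors as 1 table per library, without normalization. They were made with the Chromium version 2 kit, 10000 cells loaded, and per the labels with bcl2fastq 2.20.0.422 and Cell Ranger on GRCh38. The filters before deposit and the annotation version are not given in the sources used here. Gene IDs were matched to symbols for 33113 of 33538 genes in RVC and RVT and for 32807 of 33694 in S and RV, whose tables list another gene set.

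Barcodes with at least 500 genes and at most 20% mitochondrial UMIs were kept, and doublets were kept. UMIs were summed over cells with at least 2 and with 0 KDM5B UMIs. The CPM ratio has an exact conditional binomial interval. The depth-matched ratio, with its Poisson interval of the high class alone, weights zero cells within 20 depth bins, and thinning drew 1500 UMIs per cell. Intervals are at 95%. PCR copies were collapsed by UMI, so intervals cover counting error of molecules, not differences between cells or cultures.

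Genes with at least 50 CPM were named when among the 12 highest lower bounds or the 12 lowest upper bounds of the ratio, among the next 6 of each by the depth-matched ratio, in a gene list used as an example, in the KDM5 family, or in the slow-cycling cluster of the study. Zero cells were called deep above 3671 UMIs. The cells and lists were chosen with earlier results of these data known. The ratio steps were tested on simulated data. Python 3.11.15, numpy 2.4.6, scipy 1.17.1, scanpy 1.11.5 (scrublet) and edgeR 4.0.16 (TMM) were used. Alternatives were other thresholds, filters, totals, weights, doublet removal and thinning.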

Additional observations from a re-analysis of the deposited data

Results flagged for a closer look

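For 3 gene lists the depth-matched ratio of KDM5B-high to KDM5B-zero cells lay on opposite sides of 1 in RVT and in another library, each more than 5% from 1 with a counting interval that left out 1. The limit of 5% was set after seeing the data, and with 1 library on each side the difference was not tested. The high classes of the libraries also differed in KDM5B level. The G2/M genes were at 0.810 in RVT and 1.14 in RV, but by CPM they were above 1 in both (1.10 and 1.19). Markers of rare pre-resistant melanoma cells were at 1.06 in RVT and 0.880 in S. Without depth matching the S value was 0.953 (0.897 to 1.01) by CPM and 1.09 (0.926 to 1.28) in thinned cells, with intervals that held 1. Genes of cholesterol synthesis were at 1.07 in RVT and 0.927 in RV.

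Outside the filter, 1114 RVT barcodes (under 500 genes or over 20% mitochondrial) held 170 KDM5B UMIs. Their level was 190 CPM (163 to 221), above the 122 of the filtered cells, and 19 of them held 2 or more KDM5B UMIs. In RVC the 959 such barcodes were at 74.6 (56.4 to 96.9), above 40.0 in filtered cells. The part of free RNA or damaged cells in this was not tested.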

How the results depend on the processing

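With 1 library per condition no alternative could test the spread between cultures. The count of genes past 1.5-fold, 0 in each direction by CPM, stayed at 0 in both with a limit of 10% mitochondrial UMIs, totals without ribosomal and mitochondrial genes, TMM factors or a threshold of 1 KDM5B UMI. It was 0 higher and 1 lower depth-matched and with equal weight per cell, 1 and 7 thinned, 3 and 12 thinned with another seed, 1 and 0 with at least 1000 genes, 2 and 0 without the highest doublet scores, 1 and 13 among genes with at least 20 CPM, 68 and 118 when thinned cells were classed again (123 high cells), 21 and 106 at 3 or more KDM5B UMIs (72 cells), and 2288 and 5502 without a filter on low genes. The settings with many genes have few high cells or few UMIs per gene by their construction. The G1/S ratio of 0.993 moved to 0.856 depth-matched and 0.848 at 3 or more UMIs. The G2/M ratio of 1.10 was reversed to 0.810 depth-matched, 0.798 when thinned cells were classed again and 0.743 at 3 or more UMIs. With at least 1000 genes it was 0.995, so the difference was gone. It was 1.06 thinned with another seed or with equal weight per cell and 1.19 without the highest doublet scores. The cause of these moves was not tested beyond the depth bins.

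The depth-matched cell cycle values were recomputed under alternatives chosen after seeing the data. The G1/S ratio of 0.856 moved to 0.934 at 1 or more KDM5B UMIs, and the other 6 alternatives gave values within its interval. The G2/M ratio of 0.810 moved to 0.933 at 1 or more UMIs, 0.649 at 3 or more, 0.776 with at least 1000 genes and 0.862 without the highest doublet scores. All stayed below 1. The share of RVT high cells with at least 3 G1/S genes, 0.380 times that of zero cells of the same depth, was 0.903 times with at least 2 genes and 0.151 times with at least 4, and stayed within its interval with another draw and without the highest doublet scores. The share with at least 3 G2/M genes, 0.891 times, was 0.714 times with at least 4. For the 36 genes named by rank, 336 of 432 alternative values lay within the interval of the ratio, 79 lay outside on the same side or where that interval held 1, and 17 turned direction. On the log2 scale these were, when thinned cells were classed again, DDIT3 at −0.47, SLPI at −0.18, PTTG1 at −0.84, ZKSCAN1 at −0.032, CTNNB1 at 0.092, B4GALT1 at 0.19, PPP3CA at 0.083, SPTSSA at 0.026, GABARAPL2 at −0.33 and CKS2 at −0.84. At 3 or more KDM5B UMIs they were SLPI at −0.24, PTTG1 at −0.78, ELP2 at −0.32 and CKS2 at −0.48. Depth-matched they were PTTG1 at −0.34 and CKS2 at −0.33, and at 1 or more UMIs IGFBP5 at −0.032. The depth limits single genes: at 50 CPM the counting interval of the high class alone reached 21.4% above the value.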
